A study of Rattus norvegicus with 32 samples.

Results

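The genes described here encode the machinery that carries proteins into mitochondria, cuts off their targeting signals and folds or degrades them inside. They were taken by symbol from the deposited table, as every Timm, Timmdc and Tomm gene together with Hspd1, Hspe1, Hspa9, Pmpca, Pmpcb, Grpel1, Grpel2, Dnajc19, Pam16, Lonp1 and Clpp. The rule matched 32 of 12901 genes in the table, and 31 of these were among the 11594 genes with enough reads to test. The remaining gene, Tomm40, which encodes the pore of the outer membrane, lay between 0 and 1.68 CPM (counts scaled to a common library size) and was not tested. Chchd4, which the rule also names, and Timm23, Timm17b and Tomm5 had no entry under these symbols in the table.

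RNA came from the gastrocnemius, a calf muscle of mixed fibre type, of chow-fed male rats, and libraries were read at transcript 3′ ends. UCP1, missing in the knockout rats, is a proton channel of brown fat mitochondria that turns fuel into heat. Per the labels there were 4 groups: control rats at room temperature (control_RT, 7 libraries), control rats kept for 2 weeks at 4 °C (control_4C, 7 libraries), UCP1 knockout rats at room temperature (KO_RT, 9 libraries) and UCP1 knockout rats kept for 2 weeks at 4 °C (KO_4C, 9 libraries). The age given for the rats is 20 weeks, and no strain, knockout allele or room temperature in degrees is given. Whether the groups at each temperature are different animals is not stated, so p-values measure the spread between these samples. All 8 skeletal muscle markers looked up were present, with a summed level between 87612 and 146052 CPM. Ucp1 was not analysed here, so the genotype was not checked at its own gene.

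Nearly all mitochondrial proteins are made in the cytosol and imported. The outer membrane translocase (TOM, the Tomm genes) is the common gate. Behind it, small chaperones of the intermembrane space pass hydrophobic carriers to the TIM22 translocase, while proteins with a cleavable presequence go through the TIM23 translocase, pulled by a motor built around the chaperone Hspa9. In the matrix a peptidase of the subunits Pmpca and Pmpcb removes the presequence, the chaperonin Hspd1 with its lid Hspe1 folds the protein, and the proteases Lonp1 and Clpp remove what fails. Muscle that works or warms for long periods holds many mitochondria and depends on this supply.

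The libraries held between 7275508 and 25846976 counts. A transcript-loss index, the mean log2 CPM of 81 genes that were at least 2 log2 units lower in column KO10 than in the median of the other KO_RT libraries, was formed after the data were seen. None of the genes described here was in it. The index ran from 2.49 to 4.36 in control_RT, from 4.95 to 5.25 in control_4C, from 2.39 to 5.28 in KO_RT and from 4.67 to 5.38 in KO_4C. Columns KO10 (2.39) and KO8 (3.18) lay below the other KO_RT libraries, and the control groups did not overlap. In control rats a fit with the index as a covariate therefore cannot tell the index from cold. A call that ends in that fit is not shown to be wrong. Columns KO8 and KO10 with control_RT replicates 2 (2.49) and 3 (3.08) had the lowest index values of their groups. They are left out together below and are called the 4 libraries that stand apart. The name is only a label: KO10 is low by the definition of the index, and the next control_RT library after replicate 3 was at 3.38.

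Cold was accompanied by change in a minority of the import genes, in both directions. In control rats 6 of 31 genes passed the threshold (edgeR quasi-likelihood test, Benjamini-Hochberg adjusted p under 0.05), which is 19.4% beside 20.7% of all tested genes. Of these, 4 rose and 2 fell, where 12.4% of all genes rose and 8.28% fell. In knockout rats 9 of 31 passed, 29.0% beside 13.8% of all genes, with 6 higher and 3 lower beside 7.49% and 6.28%. The median log2 change was -0.12 over the 31 genes and 0.03 over all genes in control rats, and 0.03 and 0.01 in knockout rats. Pmpca and Timm9 passed in both genotypes, and 13 genes passed in at least 1 comparison. The shares of all genes that did so were not counted, so these numbers are not read as particular to the import genes. The plot of cold responses by machine shows that in no machine with more than 2 genes did every gene pass.

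**Figure D1:**
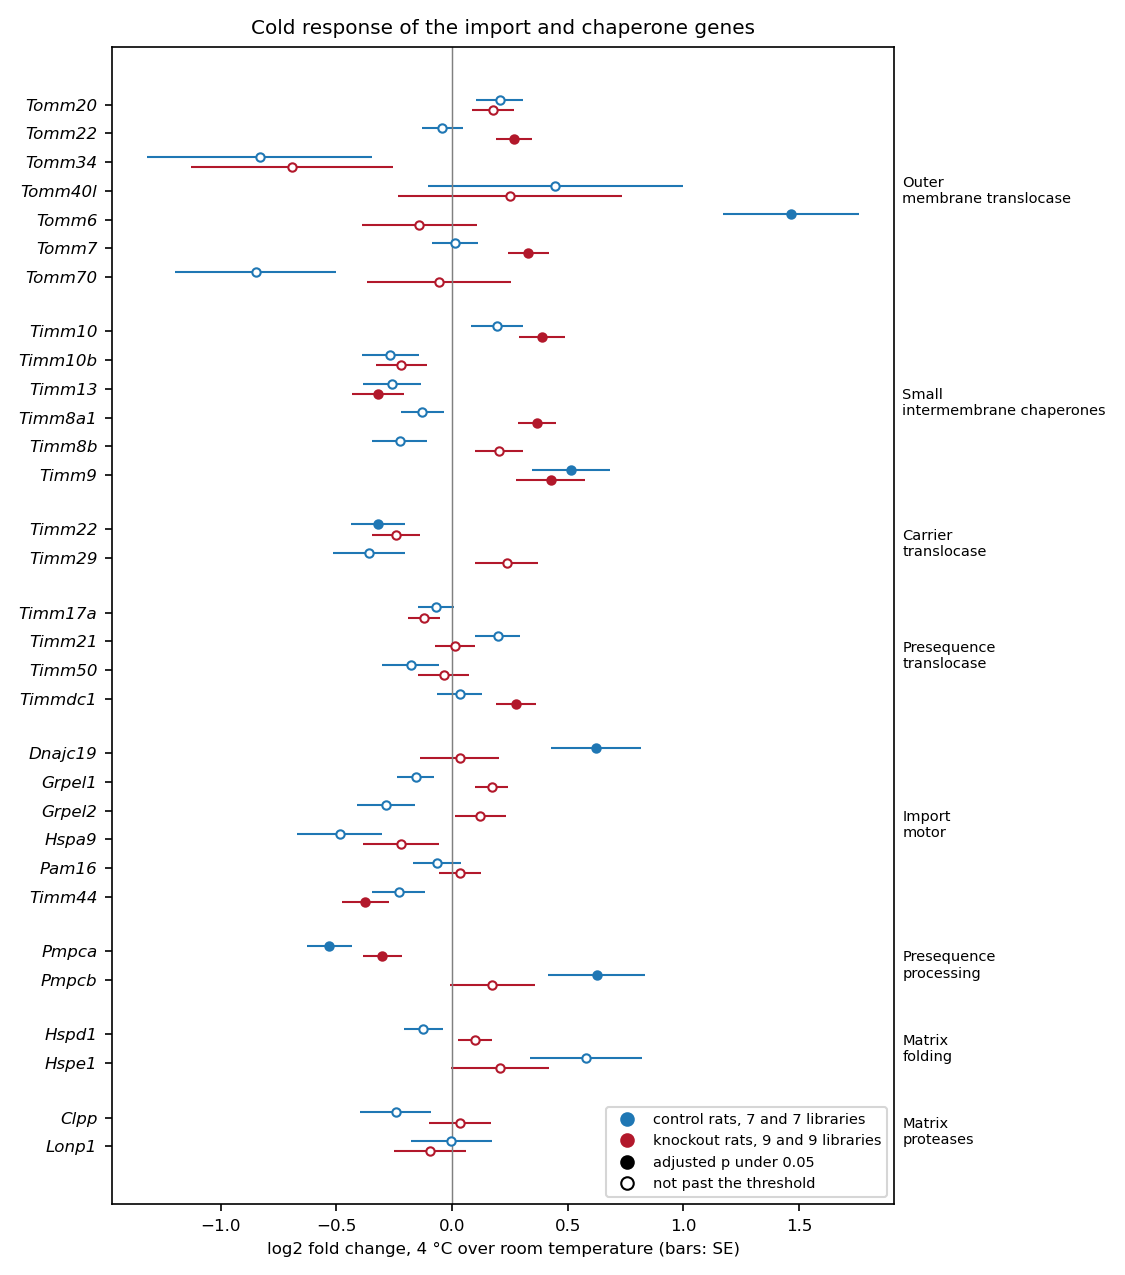
Log2 fold change of each tested gene, 4 °C over room temperature, in control rats (blue, 7 and 7 libraries) and knockout rats (red, 9 and 9 libraries), grouped by machine. Bars are standard errors, and filled points have an adjusted p under 0.05: 6 genes in control rats, from -0.53 (Pmpca) to 1.46 (Tomm6), and 9 in knockout rats, from -0.37 (Timm44) to 0.43 (Timm9).

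The counts changed in some other fits. With the loss index as a covariate 0 of 31 genes passed for cold in control rats, beside 3.11% of all genes, and 7 of 31 in knockout rats, beside 12.0%. Without the 4 libraries that stand apart 5 passed in control rats, beside 16.9% of all genes, and 5 in knockout rats, beside 11.2%. Without KO_4C replicates 7 and 8, 3 passed in knockout rats, beside 9.72%.

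Markers of fibre type and of other cells moved in the same comparisons. Of 6 slow-fibre markers 5 rose with cold in each genotype, with a summed level of 5628 to 10947 CPM in control_RT, 10772 to 18668 in control_4C, 5592 to 13078 in KO_RT and 8521 to 18601 in KO_4C. Of 8 macrophage markers 4 rose in control rats and 5 in knockout rats, and the summed level ran from 111 to 175, 152 to 255, 90.1 to 121 and 130 to 238 CPM in the same order of groups. Of 5 adipocyte markers 4 rose in control rats and 1 in knockout rats, between 68.3 and 107, 151 and 250, 76.4 and 181, and 190 and 246 CPM. Of 8 skeletal muscle markers 4 fell in control rats and 3 in knockout rats, with sums from 119112 to 141929, 92252 to 128031, 111063 to 146052 and 87612 to 128604 CPM. All 4 erythroid entries (of 3 symbols) rose in control rats, by a median of 1.70 on the log2 scale, and 0 passed in edgeR in knockout rats, where 3 had an unadjusted p under 0.05. Their sums ran from 227 to 753, 379 to 3461, 224 to 776 and 509 to 1238 CPM. Of 4 smooth muscle markers 3 rose in control rats and 0 passed in knockout rats, where 2 had an unadjusted p under 0.05, between 116 and 157, 133 and 307, 118 and 359, and 150 and 402 CPM. Among 5 endothelial markers 1 rose in each genotype, among 5 fibroblast markers 1 rose in control rats and 1 fell in knockout rats, and among 4 Schwann cell markers 2 rose in knockout rats. No marker in these lists was at 0 in a whole group. Their part in the results was not tested, and in bulk tissue fewer cells of a type and less RNA per cell cannot be told apart.

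At the outer membrane the small subunit Tomm6 passed the test in control rats, and the small subunit Tomm7 and the receptor Tomm22 passed it in knockout rats. Tomm6 (ENSRNOG00000046316), a small subunit that steadies the TOM complex, had a lowest, median and highest level of 1.34, 3.18 and 4.98 CPM in control_RT, 5.62, 8.88 and 11.4 in control_4C, 2.29, 8.28 and 13.1 in KO_RT, and 4.73, 6.83 and 10.7 in KO_4C. Every control_4C library lay above every control_RT library, and in KO_RT the low values of 2.29 and 2.48 belonged to columns KO8 and KO10. The rise in control rats was 2.76-fold (log2 1.46 ± 0.29, SE, adjusted p = 0.000613, higher in 7 of 7 libraries). In knockout rats the cold change was -0.14 ± 0.25 (adjusted p = 0.757, 95% interval -0.63 to 0.34). With the loss index as a covariate the rise in control rats became 0.28 (adjusted p = 0.557).

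Tomm7 (ENSRNOG00000043114), another small subunit, shapes TOM assembly and helps hold the kinase PINK1 at the surface. Its lowest, median and highest levels were 333, 438 and 515 CPM in control_RT, 396, 426 and 546 in control_4C, 351, 410 and 510 in KO_RT, and 438, 506 and 661 in KO_4C. The knockout groups overlapped, and all 9 KO_4C libraries lay above the KO_RT mean. Tomm7 rose by 0.33 ± 0.09 on the log2 scale in knockout rats (adjusted p = 0.0101) and stood at 0.01 ± 0.10 in control rats (adjusted p = 0.948, interval -0.18 to 0.21). Tomm22 (ENSRNOG00000014058), the central receptor and organiser of the complex, lay at 144, 148 and 191 CPM in control_RT, 137, 152 and 167 in control_4C, 114, 136 and 179 in KO_RT, and 142, 181 and 196 in KO_4C. It rose by 0.27 ± 0.08 in knockout rats (adjusted p = 0.0160, 8 of 9 libraries) and was at -0.04 ± 0.09 in control rats (adjusted p = 0.774, interval -0.21 to 0.13). Both calls ended without KO_4C replicates 7 and 8, at 0.22 for Tomm7 (adjusted p = 0.0965) and 0.24 for Tomm22 (adjusted p = 0.0573). That of Tomm22 also ended without the 4 libraries that stand apart (0.21, adjusted p = 0.0649) and with 1 surrogate variable (0.19, adjusted p = 0.0773).

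The presequence receptor Tomm20 did not pass the test in either genotype (log2 0.21 ± 0.10 with cold in control rats, adjusted p = 0.150, and 0.18 ± 0.09 in knockout rats, adjusted p = 0.201). Its group medians lay between 69.0 and 82.1 CPM. Tomm34, Tomm40l and Tomm70 also did not pass, and their highest library reached 2.89 CPM, so that counting error weighed heavily on them.

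Of the 6 small chaperones of the intermembrane space 3 rose and 1 fell in knockout rats, and 1 rose in control rats. Over all genes 7.49% rose and 6.28% fell in knockout rats, and 12.4% rose in control rats. Timm8a1 (ENSRNOG00000011226), the partner of Timm13, had lowest, median and highest levels of 31.4, 34.5 and 45.2 CPM in control_RT, 28.7, 32.9 and 40.4 in control_4C, 26.1, 31.4 and 36.8 in KO_RT, and 36.5, 39.0 and 48.0 in KO_4C. The KO_4C libraries lay above the KO_RT libraries except for a narrow overlap between 36.5 and 36.8 CPM, while the control groups overlapped widely. The rise in knockout rats was 0.37 ± 0.08 (log2, adjusted p = 0.00200, 9 of 9 libraries). In control rats the value was -0.13 ± 0.09 (adjusted p = 0.348, interval -0.31 to 0.05). Timm8a1 kept its call in knockout rats under every alternative run and without each library in turn, where its log2 change ran from 0.32 to 0.38.

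Timm9 and Timm10 form the ring that shields carrier precursors on the way to the inner membrane. Timm10 (ENSRNOG00000007883) lay at 123, 152 and 215 CPM in control_RT, 150, 203 and 215 in control_4C, 122, 173 and 197 in KO_RT, and 176, 216 and 257 in KO_4C. It rose 1.31-fold in knockout rats (log2 0.39 ± 0.10, adjusted p = 0.00666, 9 of 9 libraries), with overlapping groups, and was at 0.19 ± 0.11 in control rats (adjusted p = 0.232). Without each library in turn the rise ran from 0.33 to 0.41 and stayed past the threshold. Timm9 (ENSRNOG00000008222) lay at 19.7, 23.0 and 30.5 CPM in control_RT, 29.5, 36.7 and 43.9 in control_4C, 17.7, 31.97 and 40.0 in KO_RT, and 31.4, 35.9 and 68.7 in KO_4C. The control groups overlapped only between 29.5 and 30.5 CPM, and the knockout groups overlapped widely. Timm9 rose in both genotypes, by 0.51 ± 0.17 in control rats (adjusted p = 0.0278, 7 of 7) and by 0.43 ± 0.15 in knockout rats (adjusted p = 0.0496, 9 of 9). Neither call was firm. In control rats it ended without the 4 libraries that stand apart (0.44, adjusted p = 0.0590) and with 1 surrogate variable (0.29, adjusted p = 0.243). With the loss index as a covariate, which cannot be told from cold there, the value was -0.01 (adjusted p = 0.975). Without KO_4C replicate 7, the library with the most Timm9, the value in knockout rats was 0.28 (adjusted p = 0.173).

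Timm13 (ENSRNOG00000019682), which pairs with Timm8a1, went the opposite way to its partner in knockout rats. It ran from 190 to 463 CPM in KO_RT with a median of 228, and from 175 to 232 in KO_4C with a median of 208. It fell by 0.32 ± 0.11 (adjusted p = 0.0489, 9 of 9 below the KO_RT mean), but column KO8 held the 463 CPM and without it the value was -0.18 (adjusted p = 0.143). In control rats, where the levels were 216, 255 and 279 CPM at room temperature and 191, 207 and 221 in the cold, the value was -0.26 ± 0.13 (adjusted p = 0.142). Timm8b, a close relative of Timm8a1, was at -0.23 ± 0.12 in control rats (adjusted p = 0.173) and 0.20 ± 0.10 in knockout rats (adjusted p = 0.206). The levels of Timm8b were 402, 495 and 612 CPM in control_RT, 343, 440 and 533 in control_4C, 340, 428 and 515 in KO_RT, and 378, 515 and 600 in KO_4C. Timm10b, a further relative of Timm10, ran from 15.2 to 28.7 CPM over all libraries and had cold values of -0.27 ± 0.12 (adjusted p = 0.124) and -0.22 ± 0.11 (adjusted p = 0.191). The ratio of Timm8a1 to Timm8b in a library did not pass the test in any comparison (log2 difference 0.10 with cold in control rats and 0.17 in knockout rats, exact permutation test, adjusted p at least 0.363).

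**Figure D2:**
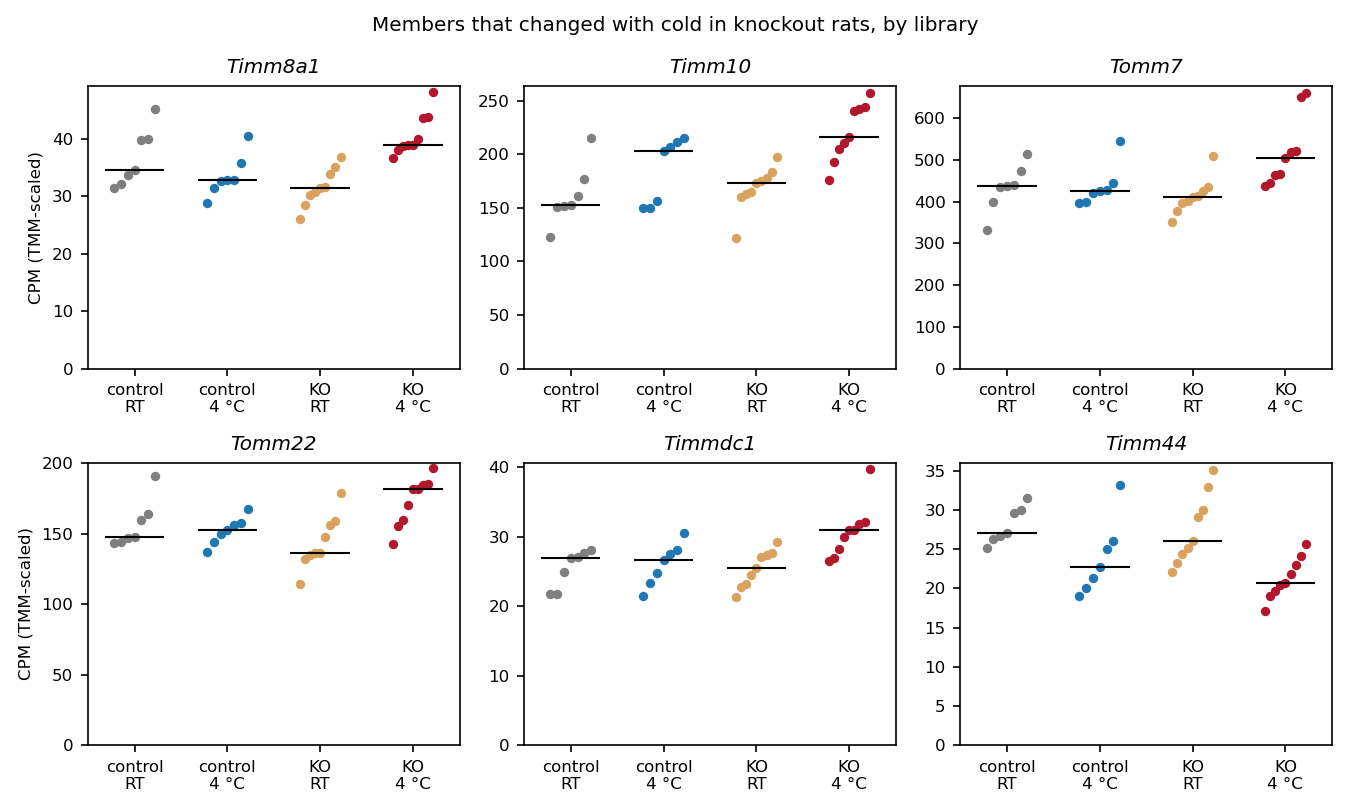
Level in every library of 6 genes that changed with cold in knockout rats, as CPM on TMM-scaled library sizes. Points are libraries, lines are group medians, and each vertical axis starts at 0. Timm8a1 shows the narrowest overlap between the knockout groups, with 36.8 CPM as the highest KO_RT and 36.5 CPM as the lowest KO_4C library.

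At the inner membrane, the carrier translocase held 1 called gene and the presequence translocase 0, apart from Timmdc1, which bears a Timm name. Over all genes 20.7% were called with cold in control rats and 13.8% in knockout rats. Timm22 (ENSRNOG00000007988), the channel for carriers, lay at 22.7, 24.9 and 28.6 CPM in control_RT and 17.7, 20.6 and 23.5 in control_4C, with a small overlap. It fell by 0.32 ± 0.12 in control rats (adjusted p = 0.0499, 7 of 7 libraries), a call that ended in 19 of 32 fits with a library left out. The value was -0.0096 with the loss index as a covariate (adjusted p = 0.978), and with 1 surrogate variable -0.13 (adjusted p = 0.411). In knockout rats its levels were 19.9, 24.0 and 39.9 CPM at room temperature and 17.8, 21.6 and 25.3 in the cold (log2 -0.24 ± 0.10, adjusted p = 0.120). Timm29, the other measured subunit of this translocase, lay at 49.6, 62.8 and 73.4 CPM in control_RT, 37.7, 49.7 and 75.4 in control_4C, 49.6, 58.0 and 76.9 in KO_RT, and 47.2, 64.6 and 110.8 in KO_4C. Its cold values were -0.36 ± 0.15 in control rats (adjusted p = 0.0955) and 0.24 ± 0.14 in knockout rats (adjusted p = 0.273).

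Timmdc1 (ENSRNOG00000002999) carries a Timm name from its sequence but works in the assembly of respiratory complex I. It lay at 21.7, 26.9 and 28.0 CPM in control_RT, 21.5, 26.6 and 30.5 in control_4C, 21.4, 25.5 and 29.2 in KO_RT, and 26.5, 30.9 and 39.7 in KO_4C. It rose by 0.28 ± 0.09 in knockout rats (adjusted p = 0.0275, 9 of 9 libraries, overlapping groups) and was at 0.03 ± 0.10 in control rats (adjusted p = 0.848, interval -0.16 to 0.23). The knockout call ended without KO_4C replicates 7 and 8 (0.20, adjusted p = 0.138), without the 4 libraries that stand apart (0.27, adjusted p = 0.0541), with the loss index (0.25, adjusted p = 0.0575), with 1 surrogate variable (0.25, adjusted p = 0.0719) and with the compared groups alone (0.26, adjusted p = 0.0531). It also ended in 4 of 32 fits with a library left out. None of the 3 true subunits of the presequence translocase passed with cold. Timm17a, part of the channel, had group medians of 104 to 112 CPM and cold values of -0.07 ± 0.08 (adjusted p = 0.575) and -0.12 ± 0.07 (adjusted p = 0.261). Timm21, which links the translocases of both membranes, lay at 29.6, 37.6 and 45.1 CPM in control_RT, 34.8, 43.7 and 46.7 in control_4C, 34.5, 45.1 and 49.9 in KO_RT, and 37.2, 46.2 and 51.7 in KO_4C. Its cold values were 0.20 ± 0.10 (adjusted p = 0.153) and 0.01 ± 0.09 (adjusted p = 0.944). Timm50, the receptor of this translocase, had group medians of 15.1 to 19.5 CPM and cold values of -0.18 ± 0.12 (adjusted p = 0.322) and -0.04 ± 0.11 (adjusted p = 0.867).

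In the import motor 1 of 6 genes rose in control rats and another fell in knockout rats, beside 12.4% and 6.28% of all genes. Dnajc19 (ENSRNOG00000049819), the J-protein that starts the ATP cycle of the motor, lay at 17.5, 29.0 and 41.7 CPM in control_RT, 38.9, 41.6 and 55.2 in control_4C, 21.8, 42.9 and 67.3 in KO_RT, and 29.1, 41.8 and 75.3 in KO_4C. It rose 1.54-fold in control rats (log2 0.62 ± 0.19, adjusted p = 0.0211, 7 of 7 libraries) and was at 0.03 ± 0.17 in knockout rats (adjusted p = 0.926). With the loss index as a covariate the value in control rats was -0.05 (adjusted p = 0.912), and columns KO8 and KO10 were at 32.7 and 21.8 CPM. The call also ended with 1 surrogate variable (0.38, adjusted p = 0.162) and without the 4 libraries that stand apart (0.45, adjusted p = 0.0588).

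Timm44 (ENSRNOG00000001058), the arm that tethers Hspa9 to the channel, lay at 25.1, 27.1 and 31.5 CPM in control_RT, 19.0, 22.7 and 33.2 in control_4C, 22.1, 26.1 and 35.2 in KO_RT, and 17.2, 20.7 and 25.6 in KO_4C. It fell by 0.37 ± 0.10 in knockout rats (adjusted p = 0.0115, 9 of 9 libraries), with overlapping groups, and the call ended without KO_4C replicates 7 and 8, at -0.32 (adjusted p = 0.0571). In control rats it was at -0.23 ± 0.12 (adjusted p = 0.158). Grpel1, the nucleotide exchange factor of Hspa9, lay at 161, 180 and 192 CPM in control_RT, 139, 159 and 177 in control_4C, 135, 153 and 192 in KO_RT, and 159, 179 and 198 in KO_4C. Its cold values were -0.16 ± 0.08 (adjusted p = 0.166) in control rats and 0.17 ± 0.07 (adjusted p = 0.106) in knockout rats. Grpel2, a second exchange factor, ran from 6.77 to 12.5 CPM and stood at -0.29 ± 0.13 (adjusted p = 0.105) and 0.12 ± 0.11 (adjusted p = 0.520). Pam16, which restrains Dnajc19 at the channel, ran from 52.5 to 94.4 CPM and stood at -0.07 ± 0.10 (adjusted p = 0.701) and 0.03 ± 0.09 (adjusted p = 0.847). Grpel2, Pam16, Timm10b and Timm50 were added after their values were seen. Hspa9, the motor chaperone, likewise named, stood at -0.49 ± 0.18 (adjusted p = 0.0558) and -0.22 ± 0.16 (adjusted p = 0.414), at levels no higher than 8.85 CPM.

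Dnajc15, a relative of Dnajc19 that can take its place at the translocase, was compared with it library by library. The log2 ratio of Dnajc19 to Dnajc15 had a lowest, median and highest value of -3.71, -2.95 and -2.24 in control_RT and -2.39, -2.07 and -1.61 in control_4C. It was 0.90 higher in the cold (two-sided exact permutation p = 0.00291, adjusted p = 0.0326 over 16 tests of 4 gene pairs). In knockout rats the difference was 0.02 (exact permutation adjusted p = 0.968). Without the 4 libraries that stand apart the difference in control rats was 0.65 and no longer passed.

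The subunits of the presequence peptidase moved in opposite directions in control rats. Pmpca (ENSRNOG00000026775), the substrate-binding subunit, lay at 53.1, 55.8 and 64.2 CPM in control_RT, 32.5, 39.4 and 51.1 in control_4C, 43.5, 52.8 and 68.8 in KO_RT, and 36.5, 42.6 and 47.4 in KO_4C. Every control_4C library lay below every control_RT library, and the knockout groups overlapped between 43.5 and 47.4 CPM. Pmpca fell by 0.53 ± 0.10 in control rats (adjusted p = 0.000234, 7 of 7) and by 0.30 ± 0.08 in knockout rats (adjusted p = 0.0133, 9 of 9). The responses differed by 0.23 ± 0.13 (adjusted p = 0.460). With the loss index as a covariate the value in control rats was -0.35 (adjusted p = 0.0817). The knockout call ended without the 4 libraries that stand apart (-0.23, adjusted p = 0.0615) and with 1 surrogate variable (-0.21, adjusted p = 0.0785).

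Pmpcb (ENSRNOG00000012693), the catalytic subunit, lay at 22.9, 48.6 and 65.1 CPM in control_RT, 62.3, 73.5 and 87.8 in control_4C, 28.4, 81.6 and 104.9 in KO_RT, and 65.6, 90.7 and 110.5 in KO_4C. The control groups overlapped only between 62.3 and 65.1 CPM, and the lowest KO_RT values of 28.4 and 41.6 belonged to columns KO10 and KO8. Pmpcb rose by 0.62 ± 0.21 in control rats (adjusted p = 0.0325, 7 of 7 libraries) and was at 0.17 ± 0.18 in knockout rats (adjusted p = 0.588). With the loss index as a covariate the value in control rats was -0.27 (adjusted p = 0.252), and without the 4 libraries that stand apart the gene still rose, by 0.43. The call ended with 1 surrogate variable (0.27, adjusted p = 0.249) and in 5 of 32 fits with a library left out.

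**Figure D3:**
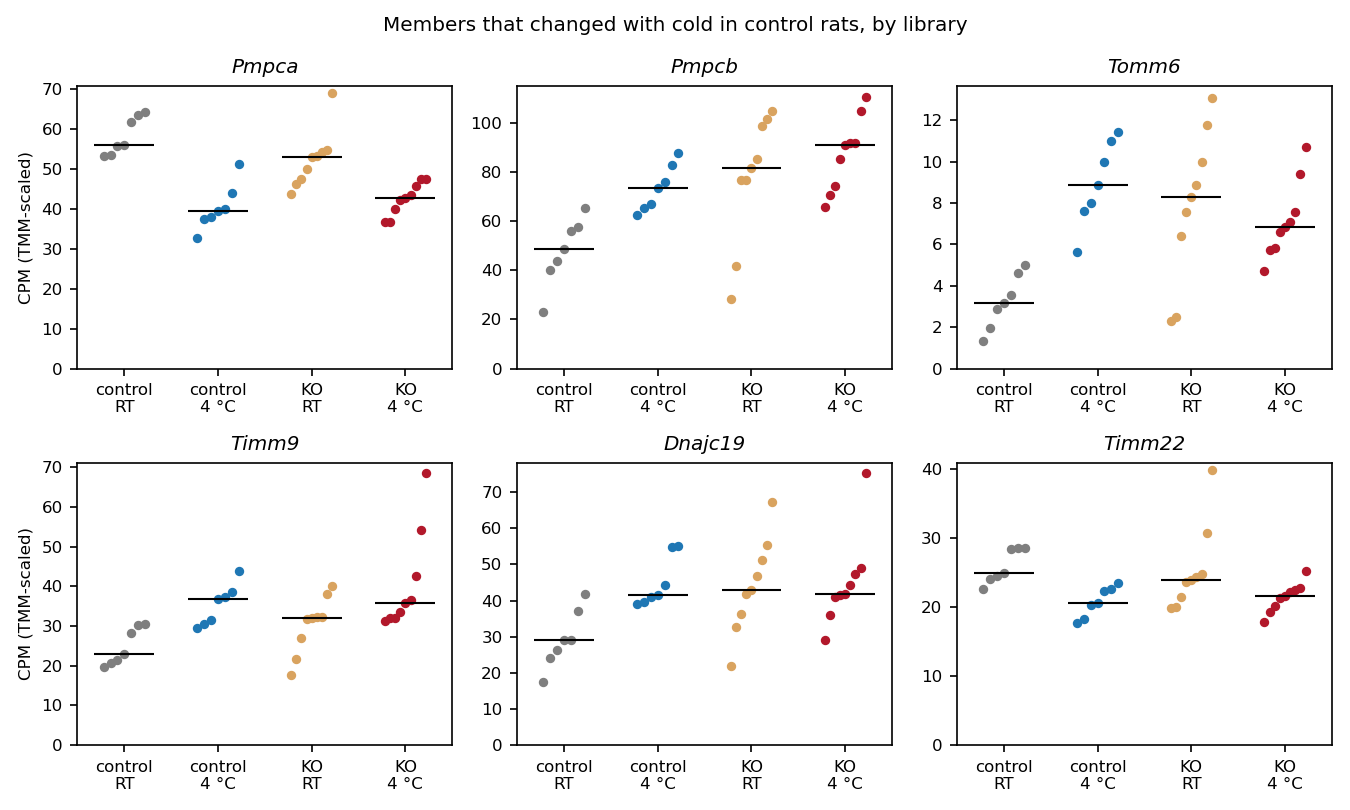
Level in every library of the 6 genes that changed with cold in control rats, as CPM on TMM-scaled library sizes. Points are libraries, lines are group medians, and each vertical axis starts at 0. Pmpca and Tomm6 show no overlap between the control groups, while Pmpcb and Tomm6 have isolated low libraries in KO_RT.

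Tomm6, Pmpcb, Dnajc19 and Timm9 are named here because they rose with cold in control rats, so their low levels in control_RT follow from that choice. The control groups did not overlap in the loss index, so between them any gene that rose goes with the index. Within KO_RT each of these genes was lowest in columns KO8 and KO10, where the index was also lowest. Timm22, which fell in control rats, was highest in KO8 (39.9 CPM) and KO10 (30.7 CPM), beside 19.9 to 24.8 in the other KO_RT libraries. Pmpca was 68.8 CPM in KO8 and 54.7 in KO10, beside 43.5 to 54.2, and Timm8a1 was 28.4 and 33.8 CPM, beside 26.1 to 36.8. The plot of level against index shows Tomm6, Pmpcb, Pmpca and Timm8a1. What the index measures in the tissue was not tested.

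**Figure D4:**
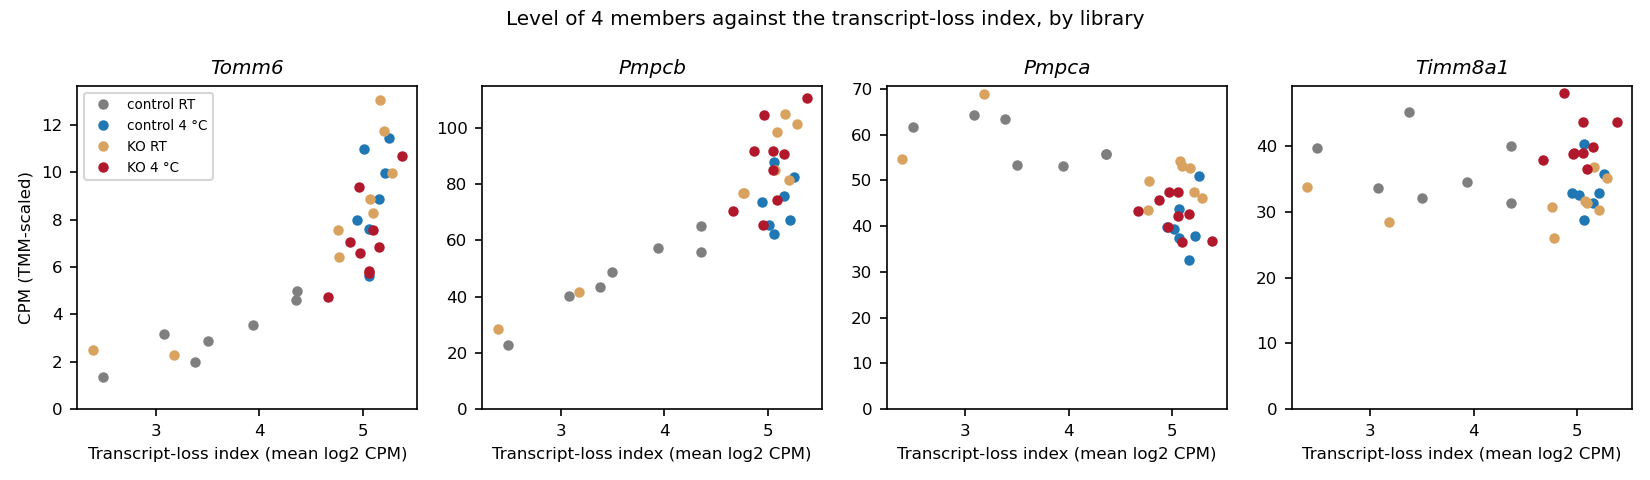
CPM of Tomm6, Pmpcb, Pmpca and Timm8a1 against the transcript-loss index (mean log2 CPM of 81 other genes), 1 point for each library, coloured by group. Columns KO10 and KO8 are the KO_RT points at 2.39 and 3.18 on the horizontal axis, where Tomm6 was 2.48 and 2.29 CPM and Pmpcb was 28.4 and 41.6 CPM.

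Hspd1 and Hspe1, the chaperonin and its lid, are made from neighbouring genes that share a promoter. Neither passed the test with cold. Hspd1 (ENSRNOG00000014525) lay at 353, 415 and 469 CPM in control_RT, 336, 378 and 416 in control_4C, 324, 392 and 445 in KO_RT, and 325, 427 and 503 in KO_4C (log2 -0.12 ± 0.08, adjusted p = 0.313 in control rats, and 0.10 ± 0.07, adjusted p = 0.413 in knockout rats). Hspe1 (ENSRNOG00000051624) lay at 22.2, 53.6 and 77.1 CPM in control_RT, 61.7, 70.9 and 105.6 in control_4C, 28.8, 68.5 and 96.1 in KO_RT, and 44.8, 65.8 and 143.7 in KO_4C (log2 0.58 ± 0.24, adjusted p = 0.0859, and 0.21 ± 0.21, adjusted p = 0.573). Within libraries the balance between them shifted in control rats. The log2 ratio of Hspd1 to Hspe1 was 2.44, 3.13 and 4.30 in control_RT and 1.98, 2.25 and 2.69 in control_4C, 0.77 lower in the cold on average (exact permutation p = 0.00408, adjusted p = 0.0326 over the same 16 tests).

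In knockout rats the ratio was 2.21, 2.49 and 3.91 at room temperature and 1.44, 2.65 and 3.23 in the cold (difference -0.11, exact permutation adjusted p = 0.831). Hspe1 was also low in columns KO8 (46.2 CPM) and KO10 (28.8 CPM). Without the 4 libraries that stand apart the difference in control rats was -0.51 and no longer passed.

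**Figure D5:**
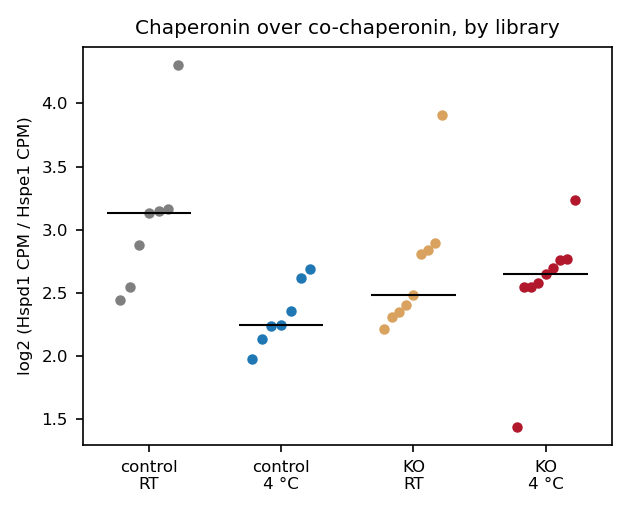
Log2 ratio of Hspd1 to Hspe1 CPM in every library, with group medians as lines. Control_RT libraries run from 2.44 to 4.30 and control_4C libraries from 1.98 to 2.69.

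The start sites of this pair lie 290 bases apart on opposite strands in the RefSeq table (build GRCr8). The 250 bases before the Hspe1 start are shown because they hold nearly the whole interval between both genes (chr9:64084077-64084326, plus strand). Capitals mark, in order, GAANNTTC (a heat shock element core) overlapping CCGGAAG (an ETS-type site, on both strands), and AAGGTCA (a motif of estrogen-related receptors).
Hspe1: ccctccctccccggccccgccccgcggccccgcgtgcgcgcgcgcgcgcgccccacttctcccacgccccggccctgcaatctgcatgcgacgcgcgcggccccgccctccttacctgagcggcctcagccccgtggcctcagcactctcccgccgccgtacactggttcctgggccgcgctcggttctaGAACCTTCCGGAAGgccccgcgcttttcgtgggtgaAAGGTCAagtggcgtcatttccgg

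The matrix proteases did not pass with cold in either genotype. Clpp, the peptidase of the ClpXP protease, had group medians of 9.70 to 12.3 CPM and values of -0.24 ± 0.15 in control rats (adjusted p = 0.267) and 0.03 ± 0.14 in knockout rats (adjusted p = 0.905). Lonp1, which removes oxidised proteins, was at -0.00 ± 0.18 (adjusted p = 0.992) and -0.10 ± 0.15 (adjusted p = 0.736).

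Between genotypes at room temperature 1 of 31 genes passed, 3.23% beside 2.61% of all genes. This was Tomm6, 2.46-fold higher in knockout muscle (log2 1.30 ± 0.28, adjusted p = 0.0123, 7 of 9 libraries above the control_RT mean), with overlapping groups. Its call ended with the loss index as a covariate (0.40, adjusted p = 0.388) and, at a value of 1.29 (adjusted p = 0.111), when only the compared groups were fitted, where no gene of the table passed. The next genes by p were Pmpcb (0.70 ± 0.20, adjusted p = 0.0525), Dnajc19 (0.59 ± 0.18, adjusted p = 0.0733), Timm21 (0.25 ± 0.09, adjusted p = 0.137), Timm8a1 (-0.21 ± 0.09, adjusted p = 0.190) and Grpel1 (-0.16 ± 0.08, adjusted p = 0.254). Without the 4 libraries that stand apart 3 genes passed beside 5.96% of all genes, namely Tomm6, Pmpcb (0.70) and Dnajc19 (0.56). The room-temperature groups also enter the cold comparisons, so these values are not separate evidence of a cold change. Cell markers differed here too. Of 5 adipocyte markers 1 passed, and all 5 values were above 0 (median log2 0.91). No other marker list held a called gene. Among 8 macrophage markers 7 values were below 0 and 1 above, and among 4 Schwann cell markers 3 were below and 1 above. Their part in the results was not tested.

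Between genotypes at 4 °C 0 of 31 genes passed in edgeR, beside 0.0518% of all genes, and 0 in DESeq2, beside 3.79%. In edgeR 7 of 31 genes had an unadjusted p under 0.05, beside 1695 of all 11594 tested genes. All of those 7 were higher in knockout muscle, among them Timm29 (0.49 ± 0.15, adjusted p = 0.0780), Timm8a1 (0.28 ± 0.09, adjusted p = 0.0877), Timmdc1 (0.24 ± 0.09, adjusted p = 0.179), Tomm7 (0.25 ± 0.10, adjusted p = 0.184), Timm10 (0.26 ± 0.11, adjusted p = 0.226) and Tomm22 (0.19 ± 0.08, adjusted p = 0.265). Over the 31 genes 22 values were above 0, beside 6180 of 11594 over all genes. The median was 0.07 beside 0.02 over all genes. Without control_4C replicate 7, in which Timm29 and Tomm7 stood above their group, 2 genes passed, beside 4.75% of all genes: Timm29 (0.58, adjusted p = 0.0136) and Timm8a1 (0.30, adjusted p = 0.0422). Neither passed in any other fit with a library left out, where the edgeR adjusted p reached 0.345 for Timm29 and 0.355 for Timm8a1.

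The difference between the cold responses, knockout minus control, passed for 0 of 31 genes in edgeR, beside 0.0259% of all genes. At an unadjusted p under 0.05 there were 9 of 31, beside 1499 of all 11594 tested genes. DESeq2 called 2, Tomm6 and Timm8a1, beside 0.966% of all genes. Their edgeR values were -1.61 ± 0.38 for Tomm6 (adjusted p = 0.0872, interval -2.36 to -0.86) and 0.50 ± 0.12 for Timm8a1 (adjusted p = 0.0933, interval 0.25 to 0.74). Next came Grpel1 (0.33 ± 0.11, adjusted p = 0.168), Timm29 (0.59 ± 0.21, adjusted p = 0.189), Timm8b (0.43 ± 0.16, adjusted p = 0.221) and Tomm22 (0.31 ± 0.12, adjusted p = 0.235). Without the 4 libraries that stand apart 3 passed, beside 2.42% of all genes: Tomm6 (-1.69, adjusted p = 0.00122), Timm8a1 (0.50, adjusted p = 0.0308) and Grpel1 (0.39, adjusted p = 0.0420). So for most genes called in 1 genotype alone, a difference between the genotypes was not shown.

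Promoter letters were read for 29 of the 32 genes from windows of 250 bases before to 50 after the start (RefSeq, build GRCr8); Lonp1, Timm29 and Tomm34 had no window. The ETS-type motif CCGGAAG, searched on both strands like the others, was in 13 windows (44.8%) beside 17.1% of the 8962 windows of the table. The palindrome bound by nuclear respiratory factor NRF1 was in those of Grpel1 and Tomm7 (6.90% beside 1.92%). AAGGTCA was in 3 (10.3% beside 2.78%), GAANNTTC in 4 (13.8% beside 5.61%), CCAAT in 10 (34.5% beside 37.3%) and TGACGTCA in 0 (beside 3.11%). These shares describe letters and say nothing about binding.

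The 120 bases before the start are shown for 5 of the 6 genes that rose with cold in knockout rats. They are also shown for both peptidase subunits, which moved apart in control rats. Timm9, which also rose in knockout rats and is not shown, held none of the motifs searched in its window. Capitals mark the ETS-type motif, CCAAT and the NRF1 palindrome, on either strand. The windows are chrX:102015445-102015564 (minus strand) for Timm8a1, chr3:90315019-90315138 (plus) for Timm10, chr4:12197383-12197502 (plus) for Tomm7, chr7:113107186-113107305 (plus) for Tomm22, chr11:75734434-75734553 (plus) for Timmdc1, chr3:29605703-29605822 (plus) for Pmpca and chr4:14202585-14202704 (minus) for Pmpcb.
Timm8a1: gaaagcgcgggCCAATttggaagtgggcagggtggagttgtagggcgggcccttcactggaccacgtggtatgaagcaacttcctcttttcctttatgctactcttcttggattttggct
Timm10: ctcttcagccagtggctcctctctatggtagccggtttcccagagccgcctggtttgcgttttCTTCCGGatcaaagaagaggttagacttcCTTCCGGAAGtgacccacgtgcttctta
Tomm7: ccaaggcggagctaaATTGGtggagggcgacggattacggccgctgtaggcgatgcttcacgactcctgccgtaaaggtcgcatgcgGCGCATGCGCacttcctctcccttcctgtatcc
Tomm22: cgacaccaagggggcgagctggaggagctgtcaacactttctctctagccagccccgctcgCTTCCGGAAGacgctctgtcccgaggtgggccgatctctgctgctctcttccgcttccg
Timmdc1: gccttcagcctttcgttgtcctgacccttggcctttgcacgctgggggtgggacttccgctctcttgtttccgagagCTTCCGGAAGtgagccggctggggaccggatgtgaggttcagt
Pmpca: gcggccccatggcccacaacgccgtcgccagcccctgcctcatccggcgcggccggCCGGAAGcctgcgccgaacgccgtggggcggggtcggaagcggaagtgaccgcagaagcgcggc
Pmpcb: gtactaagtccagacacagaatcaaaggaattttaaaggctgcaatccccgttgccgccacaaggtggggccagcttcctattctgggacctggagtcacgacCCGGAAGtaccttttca
Timm10, Tomm22 and Timmdc1 hold CCGGAAG on both strands in the overlapping form CTTCCGGAAG, and Timm8a1 and Tomm7 hold no CCGGAAG in these 120 bases. Pmpca and Pmpcb both hold it.

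Other genes of the pathway, in lists chosen beside the members, changed in both directions with cold. Over all genes 12.4% rose and 8.28% fell in control rats, and 7.49% rose and 6.28% fell in knockout rats. Counts near these shares, here and in the lists below, are not read as particular to a list. Of 15 tested genes of import and insertion 4 rose and 1 fell in control rats. Mtx2, a metaxin of the outer membrane insertion machinery, rose by 0.99 ± 0.25 (adjusted p = 0.00508), and Aifm1, which works with the oxidative folding pathway of the intermembrane space, by 0.39 ± 0.10 (adjusted p = 0.00472). Pitrm1, the protease that clears cut presequences, rose by 0.54 ± 0.17 (adjusted p = 0.0190), and Dnajc15 fell by 0.25 ± 0.09 (adjusted p = 0.0373). In knockout rats 1 of 15 rose, Aifm1 (0.29 ± 0.09, adjusted p = 0.0194), and at room temperature Pitrm1 was higher in knockout than in control muscle (0.65 ± 0.16, adjusted p = 0.0205).

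Of 10 tested quality-control genes 2 rose and 3 fell in control rats. Clpb, a disaggregase of the intermembrane space, fell by 0.61 ± 0.11 (adjusted p = 0.000324) and in knockout rats by 0.36 ± 0.10 (adjusted p = 0.0140). Htra2, a protease of the same compartment, rose by 0.94 ± 0.25 in control rats (adjusted p = 0.00684). Phb, 1 of the prohibitins that ring the inner-membrane proteases, fell by 0.34 ± 0.10 (adjusted p = 0.0124) in control rats, and its partner Phb2 rose by 0.35 ± 0.08 (adjusted p = 0.00304) in knockout rats.

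Of 10 tested genes of the mitochondrial stress response 2 rose and 1 fell in control rats: Mthfd2, a folate enzyme of the matrix (1.001 ± 0.26, adjusted p = 0.00556), the transcription factor Cebpb (0.78 ± 0.27, adjusted p = 0.0376) and the glutathione-degrading Chac1 (-1.11 ± 0.39, adjusted p = 0.0403). In knockout rats 1 rose, the pseudokinase Trib3 (1.05 ± 0.28, adjusted p = 0.00884). Among 7 cytosolic chaperones of precursors 1 fell in each genotype, Dnajb1 in control rats (-0.61 ± 0.17, adjusted p = 0.01001) and Hspa8 in knockout rats (-0.47 ± 0.16, adjusted p = 0.0377).

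Genes that stand for mitochondrial content did not move together. Cs, citrate synthase, rose by 0.25 ± 0.09 in control rats (adjusted p = 0.0382) and by 0.43 ± 0.08 in knockout rats (adjusted p = 0.000132). The outer membrane channels Vdac3 and Vdac2 fell in control rats, by 0.41 ± 0.07 (adjusted p = 0.000229) and 0.30 ± 0.07 (adjusted p = 0.00311), making 1 higher and 2 lower of 6 tested there and 1 higher of 6 in knockout rats.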

How the data were processed

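The authors deposited raw counts of reads per gene and a normalised signal, which equals the deposited count divided by 1 size factor per library (0.523 to 2.06, largest relative deviation 5.1e-10). The libraries were Lexogen QuantSeq from 500 ng of RNA with 50-base reads, per the labels. R 3.4.3, DESeq2 1.18.1 and the build Rnor_6.0 are named in the submitters' processing notes, while the sources used here name no aligner or counter. Of all deposited counts 0 were odd, so each read may have been entered in duplicate, and counts divided by 2 were an alternative.

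Counts of the 32 libraries were fitted in R 4.3.3 with edgeR 4.0.16 (filterByExpr, minimum count 10, smallest group 7, TMM factors, 1 mean per group, robust quasi-likelihood F test) and adjusted over all 11594 tested genes (Benjamini-Hochberg, 0.05) in each of 5 contrasts. SE is the absolute log2 fold change over the square root of F. Intervals are 95% intervals by a normal approximation from that SE, which makes them narrower than the F test implies. CPM uses TMM-scaled library sizes. Log2 ratios of gene pairs, from CPM without a pseudocount, were tested by exact permutation, two-sided, for which the smallest possible p is 0.000583 with 7 and 7 libraries and 4.11e-05 with 9 and 9. Code was tested on simulated data.

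Libraries totalled 7275508 to 25846976 counts, so counting error mattered mainly for genes of a few CPM. Replicate pairs differed beyond sampling noise, so no library was merged.

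Genes named are those past the threshold in any contrast, with lowest, median and highest CPM for the 6 smallest p per contrast and for those past it in both cold contrasts, plus each machine's most abundant other gene and up to 4 per further list. Members and lists were chosen with earlier results of these data known. Alternatives were DESeq2 1.42.0, RLE factors, 1 surrogate variable (sva 3.50.0), keeping low counts, TMM computed after removing the 20 most abundant genes, an adjusted p of 0.01, the compared groups alone, a replicate block, leaving out 4 libraries together and each library in turn, and a pseudocount of 0.5 CPM in the ratios. The loss index as a covariate and leaving out KO_4C replicates 7 and 8 were chosen after seeing the data. KO_RT libraries are named by column, and KO8 and KO9 were tied to their group only, with no replicate number. Protein sequences were not used here.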

Additional observations from a re-analysis of the deposited data

Results flagged for a closer look

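A library stood apart from its group by Dixon's test at 11 of 124 combinations of gene and group, where chance alone flags about 1 in 20. Of these 5 fell on column KO8 of KO_RT: Timm13 was 463 CPM there (next highest 307), Pmpca 68.8 (next 54.7), Lonp1 12.3 (next 9.55), Tomm34 2.58 (next 1.32), and Timm10 was lowest at 122 (next lowest 160). KO_4C replicate 7 was highest for Hspe1 at 144 CPM (next 86.3), Dnajc19 at 75.3 (next 49.0) and Timmdc1 at 39.7 (next 32.1). Control_4C replicate 7 was highest for Tomm7 at 546 CPM (next 444) and Timm29 at 75.4 (next 51.4). Control_RT replicate 7 was highest for Tomm22 at 191 CPM (next 164). What set these libraries apart was not tested.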

How the results depend on the processing

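At an adjusted p under 0.01, 2 genes passed for cold in control rats (beside 10.4% of all genes), 2 in knockout rats (6.89%) and 0 between genotypes at room temperature (0.181%). With 1 surrogate variable 2 passed for cold in control rats (11.5%), 5 in knockout rats (11.3%), 2 between genotypes at room temperature (3.28%) and 2 for the difference between the responses (0.474%). DESeq2 gave 3 (4.98%) and 2 (0.966%) in the last pair of comparisons. With the loss index as a covariate 0 passed in control rats (3.11%) and 0 between genotypes at room temperature (0.00863%); values of Dnajc19 (-0.0509), Hspe1 (-0.18), Pmpcb (-0.27), Timm9 (-0.0142) and Timm13 (0.17) in control rats changed sign there, as did that of Timm13, cold in control rats, with 1 surrogate variable (0.00442). Without the 4 libraries that stand apart 5 passed in knockout rats (11.2%), 3 between genotypes at room temperature (5.96%) and 3 for the difference between the responses (2.42%), and the ratio differences in control rats were 0.65 for Dnajc19 to Dnajc15 and -0.51 for Hspd1 to Hspe1, both no longer past the threshold. Without KO_4C replicates 7 and 8 together 3 passed in knockout rats (9.72%). Between genotypes at room temperature 0 passed when only the compared groups were fitted, as for all genes, and 2 with counts divided by 2 (3.52%).

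Same-numbered samples showed little likeness: 3 of 14 same-numbered pairs correlated above 0.1 (range -0.224 to 0.187), and in 3 a sample correlated best with its own number. This cannot exclude that samples are paired, because the numbers need not follow animals and columns KO8 and KO9 had no number. With the replicate block 9 genes passed for cold in control rats (beside 22.7% of all genes), 2 in knockout rats (9.74%) and 1 between genotypes at room temperature (1.90%). In that fit columns KO8 and KO9 and KO_4C replicates 1 and 2 had no same-numbered mate and did not bear on the knockout cold values. Calls lost there thus also reflect fewer libraries. Those past the threshold in knockout rats with the block were Timm8a1 and Timm44, and those no longer past it were Pmpca, Timm9, Timm10 (0.33, adjusted p = 0.0741), Timm13, Timmdc1, Tomm7 and Tomm22.

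With each library left out in turn, 2 to 8 genes passed for cold in control rats and 6 to 9 in knockout rats. Between genotypes 1 to 3 passed at room temperature and 0 to 2 at 4 °C, and 0 to 2 passed for the difference between the responses. The shares of all genes in these fits are not given here, so the ranges are not read as particular to these genes. In the same fits the ratio difference ran from 0.77 to 1.02 for Dnajc19 to Dnajc15 and from -0.87 to -0.56 for Hspd1 to Hspe1 with cold in control rats, from 0.57 to 0.85 for Dnajc19 to Dnajc15 between genotypes at room temperature, and from 0.18 to 0.40 for Hspd1 to Hspe1 at 4 °C. With cold in control rats the call ended in 7 of 32 fits for Dnajc19 to Dnajc15 and in 8 of 32 for Hspd1 to Hspe1. The highest adjusted p of the exact permutation test was 0.0839 for both. The other 2 differences each passed in 1 fit. Where a result changed, the cause was not tested.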
